A study of Mus musculus with 2 samples.

Results

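Fibroblasts of the brain's coverings and vessels were taken from single-nucleus transcriptomes of the mouse amygdala. A nucleus was counted as a member when it held at least 1 UMI (unique molecular identifier, 1 counted RNA molecule) of at least 2 of 6 genes, namely Dcn, Lum, Slc6a13, Col1a2, Col3a1 and Slc47a1, and no UMI of the neuron genes Gad1, Gad2 and Slc17a7. Nuclei with at least 500 and at most 4000 genes and at most 5% mitochondrial UMIs were kept, and 71 of 16356 kept nuclei were members. The samples were 1 library labelled WT (wild type) and 1 labelled KO with the genotype Sema6d-/-, both from C57BL6/J mice aged 6 to 8 weeks. WT gave 11 members of 9404 kept nuclei and KO gave 60 of 6952. The labels do not say how many animals made up a library or which part of Sema6d the deletion removes. With 1 library per genotype no difference between libraries could be tested, and every 95% interval below covers counting error only.

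Fibroblasts in the brain sit outside the neural tissue proper: in the dura, in the arachnoid and pia that make up the leptomeninges, and along the sheath of larger vessels. They lay down fibrillar collagens and proteoglycans, add laminins and type IV collagen to the basement membrane at the brain's surface, move solutes to and from the cerebrospinal fluid through membrane transporters, and secrete retinoic acid, bone morphogenetic proteins and other signals. Pial and arachnoid fibroblasts, the barrier cells of the arachnoid and dural fibroblasts differ in their genes, and a dissected brain region carries only what meninges stay attached to it.

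WT held 11060 barcodes and 85124128 UMIs, and KO held 8666 barcodes and 60402979 UMIs. Members were shallower than the kept nuclei as a whole: the median was 1757 UMIs in the WT members and 2499.5 in the KO members, against 6737.5 and 5378 UMIs over all kept nuclei. The members summed to 21639 UMIs in WT and 155200 in KO, so a value in WT members rests on far fewer molecules. The libraries shared 128 barcodes, and 1 KO member carried a barcode that is also in the WT list. Sema6d, which encodes a transmembrane semaphorin that binds plexins, stood at 619 CPM (UMIs of the gene per 1000000 UMIs of the class) in WT neurons (95% Poisson interval 612 to 626) and at 664 in KO neurons (655 to 673). Its RNA was therefore not lower in the neurons of the library labelled KO. RNA from outside the deleted part would not show the deletion, so this count does not check the label, and WT and KO below name libraries by their labels.

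The genes of the rule were sparse in single nuclei. Of the 71 members, 43 held exactly 2 of the 6 genes, 20 held 3, 7 held 4 and 1 held 5. Slc6a13, a GABA and taurine transporter (GAT2), had 134 UMIs in 54 members. Col1a2, a chain of type I collagen, had 89 UMIs in 48 members, and Col3a1, the chain of type III collagen, had 37 in 27. Decorin (Dcn), a small proteoglycan that binds collagen fibrils, had 60 UMIs in 30 members, and its relative lumican (Lum) had 8 in 6. Slc47a1, an exporter of organic cations (MATE1), differed from the rest in being held by few nuclei: 83 UMIs lay in 14 members. These counts chose the members and are given as a description. Another 30 kept nuclei, 5 in WT and 25 in KO, held at least 2 rule genes together with a neuron UMI and were not members.

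The label was checked on 20 fibroblast genes that the rule does not use, among them Pdgfra, Bicc1, Bnc2, Cped1, Igf2, Apod and Ptgds. Members held a median of 9 of the 20 (range 3 to 13), with a median of 6 in WT and 9 in KO, against a median of 1 in the neurons of either library. The 43 nuclei just inside the rule, with exactly 2 rule genes, held a median of 8 of the 20. The 98 nuclei just outside it, with 1 rule gene and no neuron UMI, held a median of 2, and the 4195 with none held 1. Of 93 nuclei with at least 6 of the 20 genes and no neuron UMI, 61 were members, 28 had 1 rule gene and 4 had none. The fibroblast label thus held for the members on genes outside the rule, while some nuclei with the same genes fell outside it.

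Markers of other cell types were present in many members. Of 10 microglial markers, 49 members held none, and of 10 endothelial markers, 42 held none. Neuron markers were lacking in 8 members and 40 held at least 2, astrocyte markers were lacking in 15 and 31 held at least 2, and oligodendrocyte markers were lacking in 17 and 34 held at least 2. Among the mural cell markers Rgs5, Kcnj8, Abcc9, Higd1b, Atp13a5, Notch3, Acta2, Myh11, Cspg4 and Vtn, 4 were at 0 over all members, and vitronectin (Vtn) alone gave 179 of their UMIs, at 1012 CPM against 1934 in mural nuclei. No mural, endothelial, astrocyte, oligodendrocyte, microglial or neuronal marker list had a gene that was highest in fibroblasts among the 7 classes of nuclei compared, of those with a mean of at least 10 CPM. Of the members, 8 also met the marker rule of another class, all in KO, and 4 of them met the mural rule. The border macrophage genes F13a1 and Stab1 had 28 and 14 UMIs, each in 2 members. The part of such overlap in the results was not tested beyond leaving those 8 members out.

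Across the pooled members, the genes furthest above every comparison class were regulators, matrix genes and secreted signals. The plot of rule and leading genes by class shows the 25 genes with the highest ratio of fibroblast CPM to the highest of the mural, endothelial, astrocyte, oligodendrocyte, microglial and neuronal classes, among genes with at least 100 UMIs in members. Eya2, a transcriptional co-activator with phosphatase activity, led at 718 CPM (599 to 854), or 79.9-fold over mural nuclei with an interval of 14.1 to 3178 because mural nuclei gave so few UMIs. Lama1, the laminin alpha chain of the pial basement membrane, was at 792 CPM and 34.8-fold over endothelial nuclei. Ccn2 (connective tissue growth factor), with 42 of its 103 UMIs in 1 member, was 32.4-fold over mural nuclei. Bmp6, a bone morphogenetic protein, exceeded them with an interval of 9.93 to 36.4 for the ratio, at 1781 CPM (1590 to 1989) in 62 of 71 members. The metalloprotease Adam12 (14.7-fold), the zinc finger gene Bnc2 (13.3-fold), Ranbp3l (9.08-fold), which exports SMAD proteins from the nucleus, and Errfi1 (8.86-fold), an inhibitor of EGF receptor signalling, followed. These genes come from the nuclei that the rule chose, so the ratios describe the class and were not tested.

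**Figure D1:**
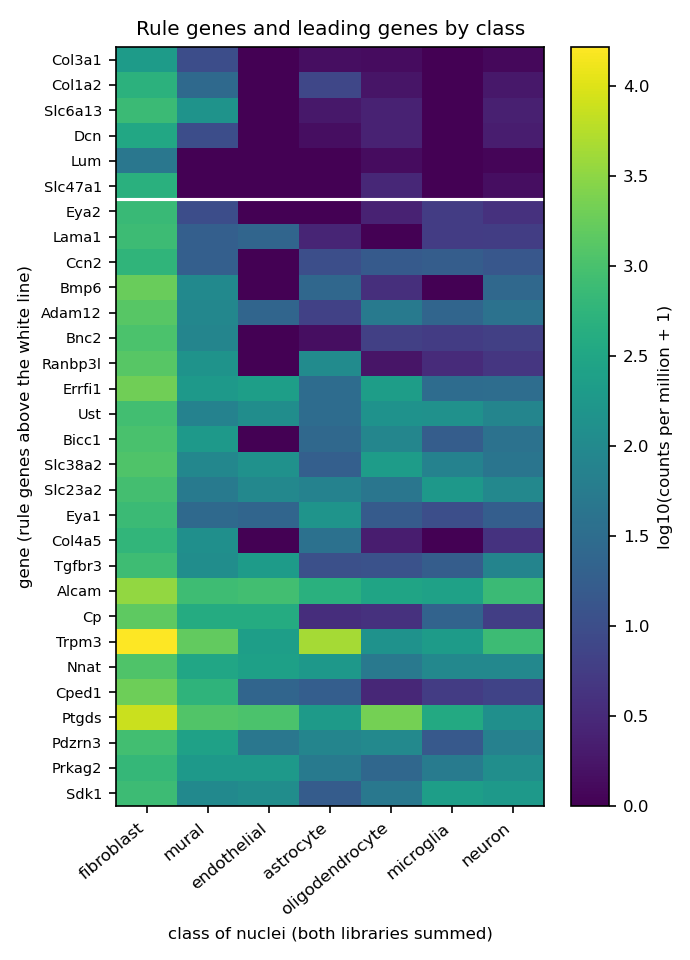
Heat map of log10(CPM + 1) for the 6 rule genes (above the white line) and the other leading genes (rows) in 7 classes of nuclei summed over both libraries (columns). The fibroblast column is the brightest in every row, and Trpm3 and Ptgds are also bright in astrocytes and oligodendrocytes, where they stood at 4448 and 2192 CPM.

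The matrix genes were high as a group. Lists were read against all genes with a mean of at least 10 CPM over the 7 classes: 1794 of 11165 such genes (16.1%) were highest in fibroblasts, and the median log2 ratio of fibroblasts to the mean of the other classes was -0.02. Of 13 fibrillar collagens and fibre proteins that reached this mean, 11 were highest in fibroblasts, with a median log2 ratio of 3.59. The rule genes Col1a2 and Col3a1 are among them, and without these it was 9 of 11. Col12a1, a collagen on the surface of fibrils, was at 266 CPM and 11.7-fold over endothelial nuclei, whereas elastin (Eln), at 385 CPM, and fibronectin (Fn1), at 266 CPM, were 1.06-fold and 0.648-fold of endothelial nuclei. Of 21 basement membrane genes, 9 were highest in fibroblasts (median 1.86), including Lama2 at 1267 CPM and Col4a5, a type IV collagen chain, at 599 CPM. Of 19 proteoglycans and matrix glycoproteins 11 were highest (median 1.96; 10 of 18 without the rule gene Dcn), with fibulin 1 (Fbln1) at 300 CPM and Efemp1 at 283 CPM. Of 17 matrix-processing genes 7 were highest (median 0.98), led by the metalloprotease inhibitor Timp3 at 1962 CPM, 2.87-fold over endothelial nuclei, and by Adamtsl3 at 430 CPM.

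Transporters and transcription factors gave the next large blocks. Of 24 leptomeningeal transporters, 17 were highest in fibroblasts, with a median log2 ratio of 3.15. The rule genes Slc6a13 and Slc47a1 are among them, and without these it was 15 of 22. The neutral amino acid transporter Slc38a2 was at 1125 CPM and 5.37-fold over oligodendrocytes, the cystine/glutamate exchanger Slc7a11 at 973 CPM and 2.24-fold over astrocytes, and the vitamin C transporter Slc23a2 at 905 CPM and 5.13-fold over microglia. The proline transporter Slc6a20a, at 1674 CPM, was 1.03-fold of mural nuclei. Of 26 meningeal and mesenchymal transcription factors, 15 were highest (median 2.17). Foxp1 stood at 2121 CPM, Bnc2 at 1074, Foxp2 at 865 and the co-activator Eya1 at 763, and Eya1 was 5.04-fold over astrocytes.

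Signalling genes were mixed. In the BMP and TGF-beta pathway 5 of 21 genes were highest in fibroblasts (median 0.53): the ligands Bmp6 and Bmp7 (232 CPM, 10.2-fold over endothelial nuclei) and the co-receptor Tgfbr3 (814 CPM, 3.97-fold) were among them, while the receptor Tgfbr1, at 311 CPM, was 0.126-fold of microglia. In retinoid synthesis and response 6 of 10 genes were highest (median 1.28). Aldh1a2, which makes retinoic acid, was at 368 CPM in 30 members and 40.9-fold over mural nuclei, and Cyp1b1, also able to make retinoic acid, was at 141 CPM. The imprinted growth factor Igf2 was at 238 CPM against 2.32 CPM in microglia, its highest other class. In the IGF system 5 of 9 genes were highest (median 2.02), and in the WNT pathway 5 of 14 (median 1.5), with Rspo3, an enhancer of WNT signalling, at 209 CPM. In PDGF and FGF signalling 3 of 12 genes were highest (median 0.61), with Pdgfra, the PDGF receptor of fibroblasts and of oligodendrocyte precursors, at 187 CPM. The prostaglandin D synthase Ptgds was the one gene of 5 in its pathway list that was highest, at 7555 CPM (7155 to 7971).

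Adhesion and guidance genes stood nearer to the background. Of 23 junction and adhesion genes 4 were highest in fibroblasts (median -0.56), with Itgbl1 at 492 CPM and 32.0-fold over neurons, and of 26 semaphorins, plexins and neuropilins 4 were highest (median -0.51). The receptor Plxna2 was at 809 CPM, 2.22-fold over endothelial nuclei, and the secreted ligand Sema3a at 515 CPM, 2.82-fold over them. Of 13 cytokine, chemokine and complement genes 2 were highest (median -0.23). Of 9 scar and contractile genes 2 were highest, Ccn2 and Ccn1, the latter at 554 CPM. Of 12 cell cycle genes 7 were at 0, and the highest, Pcna, had 2 UMIs. Of 16 early response genes 7 were highest (median 1.62), as were 1 of 8 oligodendrocyte precursor, 1 of 3 border macrophage and 1 of 1 choroid plexus markers that reached the mean.

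Markers of the meningeal layers were found together in the pool: 4 of 5 pial, 4 of 5 arachnoid (3 of 4 without Slc47a1), 2 of 5 arachnoid barrier, 3 of 8 dural and 5 of 8 perivascular markers were highest in fibroblasts. Over all members, Lama1 led the pial list, Slc47a1 and Aldh1a2 the arachnoid list, Abcg2 (238 CPM) the arachnoid barrier list, Foxp1 and Col12a1 the dural list, and Fbln1, Spp1 (198 CPM) and Pdgfra the perivascular list. Slc47a1 was held by 14 members and Slc6a13 by 54, and 1 nucleus held both. Both are rule genes, so this count is shaped by how the members were chosen.

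Clustering of the 71 members gave 3 groups of 51, 13 and 7 nuclei. The group of 13, in which all nuclei held Slc47a1 and Slc4a10, stayed whole at a higher clustering resolution. The other 58 nuclei split by Trpm3, a calcium-permeable cation channel: no member held 7 to 9 Trpm3 UMIs, and a minimum of 10, chosen after the values had been seen, divided them into 34 nuclei with 10 to 200 Trpm3 UMIs and 24 with 0 to 6. The 3 sets are called here the Trpm3-rich set, the Trpm3-poor set and the Slc47a1 set. The heat map of UMIs per nucleus shows them side by side. Genes that lead a set were picked from its own nuclei, after their values were seen, and are given as a description.

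**Figure D2:**
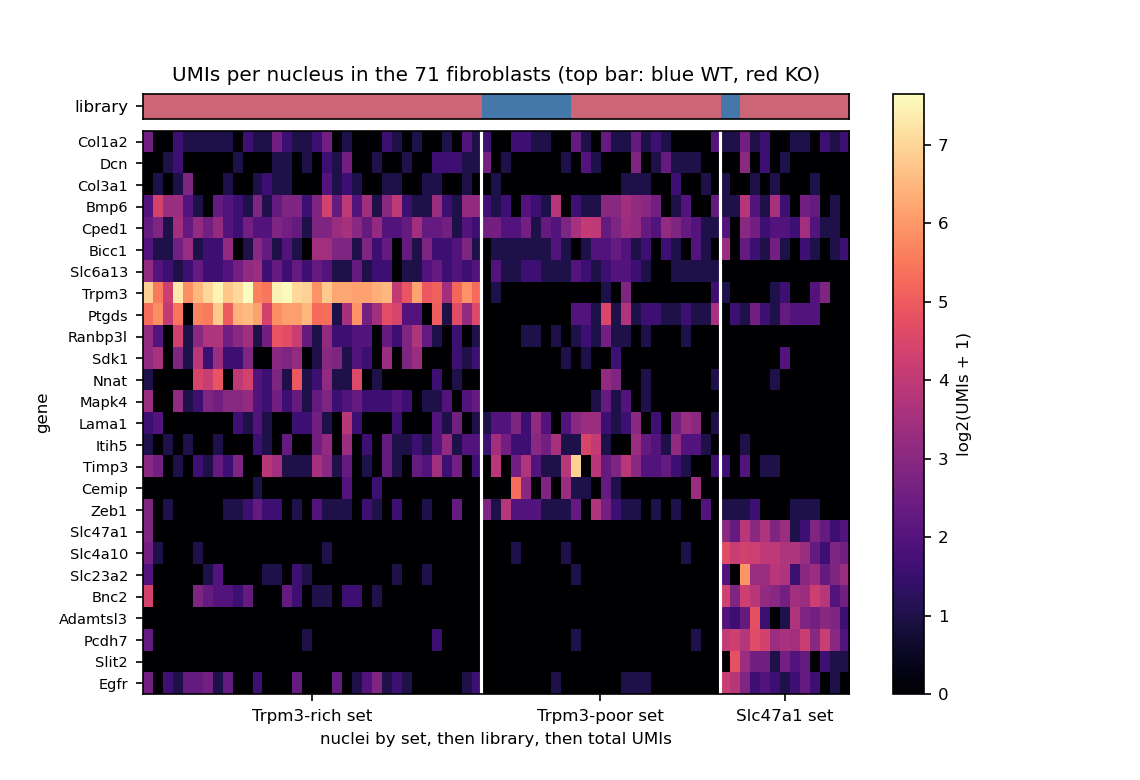
Heat map of log2(UMIs + 1) for 26 genes (rows) in the 71 members (columns), ordered by set, library and total UMIs; the bar on top is blue for WT and red for KO. Trpm3 and Ptgds are bright across the 34 nuclei of the Trpm3-rich set, all KO, and Slc47a1, Slc4a10 and Pcdh7 across the 13 nuclei of the Slc47a1 set.

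The Trpm3-rich set was made up of KO nuclei only. Trpm3 ranged from 10 to 200 UMIs per nucleus with a median of 73, which summed to 30612 CPM. The set is defined by its Trpm3 UMIs, so this level follows from the cut-off and no fold is read from it. Ptgds had a median of 31.5 UMIs and a highest value of 110, at 13183 CPM, 9.24-fold over the Trpm3-poor set. Sdk1, an adhesion molecule, was 15.5-fold over the Trpm3-poor set, Enpp2 (autotaxin, which makes lysophosphatidic acid) 15.2-fold with an interval of 2.53 to 617, Ranbp3l 6.37-fold and the kinase gene Mapk4 5.31-fold. The adhesion molecule Alcam was at 5155 CPM in this set against 1516 and 1233 in the others. Transporters of organic anions and dicarboxylates went with it: Slc22a8 was at 433 CPM, Slc22a6 at 264 and Slc13a3 at 539, against 134, 44.6 and 111 CPM in the Trpm3-poor set, and all 3 were at 0 in the Slc47a1 set. Igf2 (370 CPM), Aldh1a2 (560 CPM) and Bmp7 (338 CPM) were likewise highest there. Slc6a13 was held by 33 of the 34 nuclei.

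The Trpm3-poor set was the richest in pial and basement membrane genes. Lama1 ranged from 0 to 9 UMIs per nucleus, was held by 20 of 24 nuclei and stood at 2006 CPM (1613 to 2466), against 528 in the Trpm3-rich set and 0 UMIs in the Slc47a1 set. Timp3 was at 5126 CPM, 4.41-fold over the Trpm3-rich set, although 1 KO nucleus held 120 of its 230 UMIs. Itih5, whose product stabilises hyaluronan in the matrix, was at 2585 CPM (3.95-fold). Ccn2 was at 1605 CPM (5.63-fold), although 1 nucleus held 42 of its 72 UMIs. Apod was held by all 24 nuclei, at 3923 CPM. The hyaluronan-degrading gene Cemip was 27.1-fold over the Trpm3-rich set (11.9 to 76.1), but its 77 UMIs lay in 9 nuclei, and 1 WT nucleus held 39 of them. Elastin was also uneven, with 61 UMIs in 5 nuclei. Basement membrane genes summed to 8982 CPM in this set against 4373 and 1421, and the pial list to 2719 CPM against 898 and 0. A count of 0 in the Slc47a1 set allows up to 80.4 CPM.

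The Slc47a1 set, 2 WT and 11 KO nuclei, lacked much of what the others shared. Slc6a13, Lama1, Col4a5, Slc7a11, Slc6a20a, Ranbp3l and Igf2 were all at 0 UMIs among its 37301 UMIs. Slc4a10, a sodium-coupled bicarbonate transporter, ranged from 2 to 24 UMIs per nucleus (median 12), at 4236 CPM and 50.1-fold over the Trpm3-rich set. Slc47a1 ranged from 1 to 14 UMIs (median 6), at 2064 CPM. Pcdh7, a protocadherin, was 62.4-fold and the anion exchanger Slc26a7 96.4-fold over the Trpm3-rich set, the latter with an interval of 16.3 to 3908. Adamtsl3 and the guidance ligand Slit2, at 0 in both other sets, were at least 64.3-fold and at least 53.3-fold higher with the floor of 3 counts in the Trpm3-rich set. Bnc2 was held by all 13 nuclei and by none of the Trpm3-poor set, at 3619 CPM against 581 in the Trpm3-rich set. Slc38a2 (3217 CPM), Slc23a2 (3887 CPM), Foxp2 (2037 CPM) and Foxp1 (167 UMIs in 13 of 13 nuclei) were also highest here, as were the type VI collagen chains Col6a1 (322 CPM) and Col6a2 (509 CPM), Col12a1 and Fn1 (938 CPM each). Its transporters summed to 18927 CPM and its transcription factors to 14611 CPM, above both other sets. Slc47a1, used to pick the set, and Slc4a10 gave 77 and 158 of its 706 transporter UMIs. The transporter sum is therefore shaped by genes that mark the set, and no rank is read from it.

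**Figure D3:**
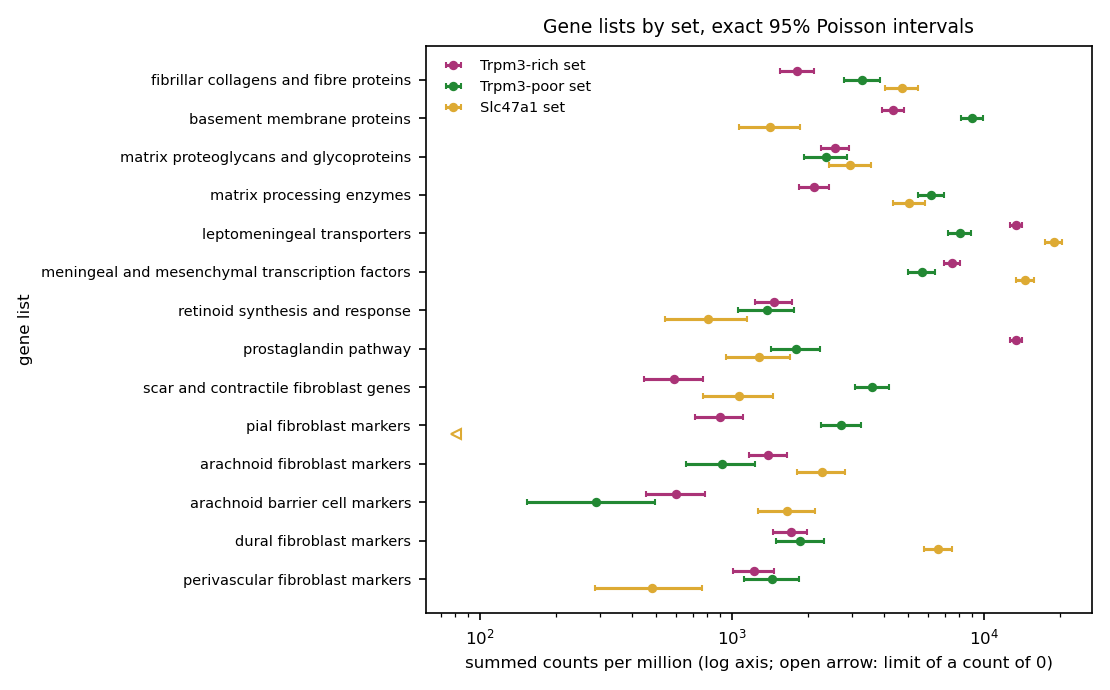
Summed CPM (horizontal log axis) of 14 gene lists (rows) in the 3 sets, with exact 95% Poisson intervals; the open arrow marks the limit that a count of 0 allows. Basement membrane and pial genes are highest in the Trpm3-poor set, the prostaglandin list in the Trpm3-rich set (13468 CPM), and transporters, transcription factors, dural and arachnoid barrier genes in the Slc47a1 set. The transporter sum there includes Slc47a1 and Slc4a10, which mark the set.

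The layer lists did not give each set 1 layer. The dural list was highest in the Slc47a1 set (6595 CPM against 1711 and 1872), where Foxp1 and Col12a1 carried it, and the arachnoid list was too (2279 CPM against 1394 and 914), where Slc47a1 itself carried it and Aldh1a2 was at 0. The arachnoid barrier list stood at 1662 CPM there, 602 in the Trpm3-rich set and 290 in the Trpm3-poor set, with the junction gene Cdh1 at 7 UMIs in 3 nuclei of the Slc47a1 set. The perivascular list stood at 1225, 1449 and 483 CPM. No set is therefore given the name of a layer. Oligodendrocyte markers summed to 2303 CPM in the Trpm3-rich set, 669 in the Trpm3-poor set and 1019 in the Slc47a1 set, astrocyte markers to 824, 847 and 2172 CPM, mural markers to 1289, 1516 and 26.8 CPM, and border macrophage markers to 592, 0 and 0 CPM. The part of these markers in the differences between sets was not tested.

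The upstream sequence of 4 genes is printed, to show promoters of genes that differ in pattern among the sets: Col1a2, a collagen found in all 3 sets, Trpm3 and Ptgds, high together in the Trpm3-rich set, and Slc4a10, found in all 13 nuclei of the Slc47a1 set. Each window is the 200 bases before the RefSeq start on GRCm38.p6, written 5′ to 3′ on the gene's strand, with capitals for 3 core promoter motifs searched on both strands. The TATA box was searched as TATAAA. The CCAAT box was searched as the letters of its name. The GC box was searched as GGGCGG, and no match overlapped another. Col1a2 lies on chromosome 6 (chr6:4505418-4505617, + strand), Trpm3 on chromosome 19 (chr19:22138846-22139045, + strand, the first of 2 starts), Ptgds on chromosome 2 (chr2:25469750-25469949, - strand) and Slc4a10 on chromosome 2 (chr2:62046315-62046514, + strand, the first of 2 starts).
Col1a2: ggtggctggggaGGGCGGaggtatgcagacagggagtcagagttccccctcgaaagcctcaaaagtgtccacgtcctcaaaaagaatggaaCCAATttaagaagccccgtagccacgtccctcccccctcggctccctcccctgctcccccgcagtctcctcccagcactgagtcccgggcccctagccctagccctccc
Trpm3: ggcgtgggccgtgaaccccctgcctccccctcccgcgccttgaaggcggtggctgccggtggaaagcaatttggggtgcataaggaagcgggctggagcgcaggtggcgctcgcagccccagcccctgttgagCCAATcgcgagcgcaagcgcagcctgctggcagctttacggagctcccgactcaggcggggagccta
Ptgds: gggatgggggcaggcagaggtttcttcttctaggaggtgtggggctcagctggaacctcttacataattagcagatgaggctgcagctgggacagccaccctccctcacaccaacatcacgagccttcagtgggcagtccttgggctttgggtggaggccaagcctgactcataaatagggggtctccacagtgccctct
Slc4a10: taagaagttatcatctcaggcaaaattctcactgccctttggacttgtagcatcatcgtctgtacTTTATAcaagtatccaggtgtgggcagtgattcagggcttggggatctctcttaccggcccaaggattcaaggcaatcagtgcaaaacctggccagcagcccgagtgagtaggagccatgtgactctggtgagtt
Col1a2 held a CCAAT box 109 to 105 bases and a GC box 188 to 183 bases before the start, and Trpm3 a CCAAT box 67 to 63 bases before it. Slc4a10 held the reverse of a TATA box (TTTATA) 135 to 130 bases before its start, and the Ptgds window held none of the 3 motifs. Over 32851 mouse promoter windows of this length, 9.96% held the TATA box, 29.3% the CCAAT box and 31.0% the GC box, so single matches are common. Trpm3 and Ptgds shared no motif of the 3, and the windows were 69.0% and 57.5% G or C. Of the 6 rule genes 3, and of the 25 leading genes 18, had an entry in the RefSeq table.

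Fibroblasts took a larger share of the library labelled KO. They made up 0.117% of kept nuclei in WT (exact Clopper-Pearson interval 0.0584 to 0.209) and 0.863% in KO (0.659 to 1.11), and the ratio was 7.38 with an interval of 3.84 to 15.6. The other non-neuronal classes had ratios between 0.830 (mural) and 2.77 (microglia). Mural nuclei were 0.468% and 0.388%, endothelial nuclei 0.128% and 0.187%, and astrocytes 4.88% and 5.49%, while oligodendrocytes were 3.99% and 10.98% and microglia 0.829% and 2.30%. How much meninges each dissection carried is not given, and genotype, dissection and library cannot be told apart. With at least 3 of the 6 rule genes the shares were 0.0106% (1 nucleus) and 0.388% (27 nuclei), and chosen by 6 of the 20 genes outside the rule they were 0.117% (11 nuclei) and 1.18% (82 nuclei).

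**Figure D4:**
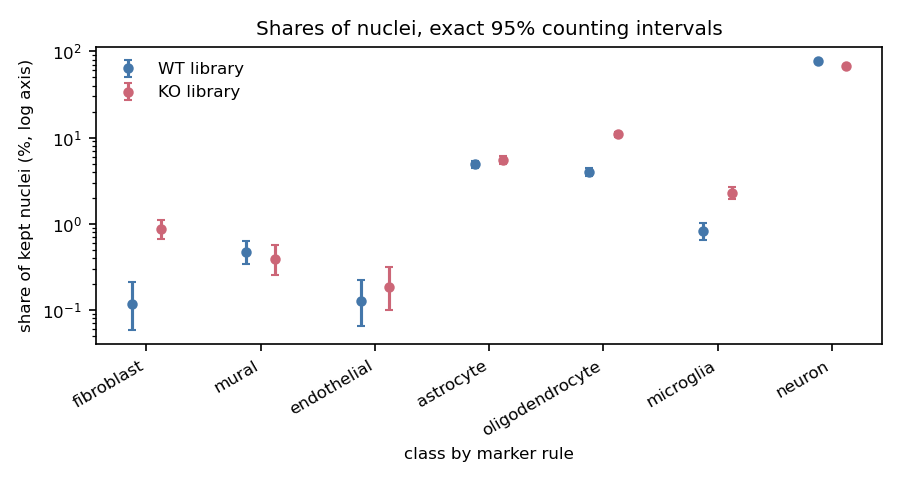
Share of kept nuclei (vertical log axis, %) in 7 marker-defined classes for the WT (blue) and KO (red) libraries, with exact 95% counting intervals. The fibroblast intervals do not overlap (0.0584 to 0.209% and 0.659 to 1.11%), nor do those of oligodendrocytes, microglia and neurons. Those of mural nuclei, endothelial nuclei and astrocytes do.

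The sets differed in their shares. The Trpm3-rich set was 0.489% of KO nuclei (0.339 to 0.683) and 0 of 9404 WT nuclei, which allows a share of up to 0.0319%. The Trpm3-poor set was 0.0957% of WT nuclei (9 nuclei, 0.0438 to 0.182) and 0.216% of KO nuclei (15 nuclei, 0.121 to 0.356). The Slc47a1 set was 0.0213% of WT nuclei (2 nuclei, 0.00258 to 0.0768) and 0.158% of KO nuclei (11 nuclei, 0.0790 to 0.283). Among nuclei chosen by 6 of the 20 outside genes, 49 of 82 in KO and 0 of 11 in WT held at least 10 Trpm3 UMIs, and with 5 of the 20 the counts were 50 of 90 and 1 of 18. Most of the nuclei with 6 of the 20 were members (54 in KO and 7 in WT). Of those that were not, 15 of 28 in KO and 0 of 4 in WT held at least 10 Trpm3 UMIs. The 20 genes summed to 24263 CPM in the Trpm3-rich set, 13105 in the Trpm3-poor set and 10026.5 in the Slc47a1 set. Ptgds alone gave 13183 CPM in the Trpm3-rich set. Choosing by these genes therefore favours Trpm3-rich nuclei and is no independent check. Ptgds was also found in more KO than WT neurons, as given below.

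RNA of fibroblast genes was also higher in KO neurons, a type that should lack it. The 6 rule genes summed to 1.64 CPM in WT neurons (1.31 to 2.03) and 8.17 CPM in KO neurons (7.20 to 9.23), and Slc6a13 alone to 0.283 and 3.05 CPM. After each nucleus was thinned to 1000 UMIs, which left out 2 KO members and no WT member, Slc6a13 was found in 6 of 11 WT and 27 of 58 KO members (54.5% and 46.6%; unthinned 72.7% and 76.7%), against 0.0276% and 0.517% of neurons, whose median depths were 7396 and 6981 UMIs against 1757 and 2499.5 in members. Ptgds was found in 5.31% of WT and 22.5% of KO neurons after thinning. The source of this RNA in neurons was not tested, nor was the part of such RNA in the members' values.

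Between libraries, the pooled members differed most in Trpm3 and Ptgds among the genes named. Genes with at least 100 UMIs over both libraries were compared by CPM: 34 of 172 (19.8%) were at least 2-fold higher in KO and 12 (6.98%) at least 2-fold lower. Scaled by TMM, a trimmed mean of ratios in place of total UMIs, the median log2 ratio of the 172 genes moved from 0.03 to 0.60 and the counts to 60 higher and 2 lower. Without the 34 Trpm3-rich nuclei 43 genes kept 100 UMIs, of which 3 were at least 2-fold higher and 0 lower; no test with p-values was possible for either count. The minimum of 100 UMIs favours genes high in KO, since a gene seen only in KO passes it at 644 CPM and one seen only in WT at 4621 CPM, so nothing is read from the numbers higher and lower. The ratios below are relative to total UMIs, and WT members gave a median of 18 UMIs per gene compared.

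Trpm3 had 2 UMIs over the 11 WT members, with no nucleus above 1, and 2919 over the 60 KO members. Of the KO members 19 held none, 7 held 1 to 6, 4 held 10 to 29, 18 held 30 to 99 and 12 held 100 or more. The libraries overlapped only at the low end, and the log2 ratio was 7.67 (5.81 to 10.72). Ptgds had 2 WT UMIs, both in 1 nucleus, and 1334 KO UMIs in 55 of 60 nuclei (6.54, interval 4.68 to 9.59). In astrocytes, its highest other class with the libraries pooled, Trpm3 stood at 4165 CPM in WT and 4799 in KO. Ptgds stood at 1064 and 2870 CPM in oligodendrocytes and at 45.8 and 264 CPM in neurons. Mural nuclei differed too, with Trpm3 at 211 CPM in WT and 5265 in KO and Ptgds at 99.5 and 3965, and 4 KO members met the mural rule. The part of these values in the members' difference was not tested.

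The other genes highest in KO were Sdk1 (log2 ratio 4.26, 1 against 137 UMIs), Ranbp3l (3.41, 3 against 228), Slc23a2 (2.87, 3 against 157), Adam12 (2.67, 5 against 228), Lrmda (2.47, 4 against 159) and Pde1a (2.39, 4 against 150), a calcium-dependent phosphodiesterase. Nnat, an imprinted gene that encodes neuronatin, and Mapk4 had 0 WT UMIs and 201 and 122 KO UMIs, and were at least 3.22 and at least 2.50 higher on the log2 scale with the floor of 3 counts. Nnat lies on chromosome 2 from 157560078 to 157562522 within the span of Blcap on the opposite strand (mm10). No label says whether counting used the strand, so its reads are uncertain. The Trpm3-rich set, with no WT nucleus, held 131 of the KO UMIs of Sdk1, 215 of Ranbp3l, 184 of Nnat and 112 of Mapk4. The Slc47a1 set held 142 of those of Slc23a2, 61 in 1 nucleus. In the Trpm3-poor set Sdk1 was at 0.67 (-2.97 to 6.38), with 1 WT and 3 KO UMIs, and Ranbp3l had 3 and 13. Pde1a was at 1.94 (0.43 to 3.91) there, and Adam12 is given below. The part of set make-up in these pooled ratios was not tested beyond leaving out the Trpm3-rich nuclei.

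Among genes lowest in KO, Zeb1, a repressor of epithelial genes, had 34 UMIs in all 11 WT members and 72 in 32 of the KO members, at 1571 and 464 CPM (log2 ratio -1.76, interval -2.37 to -1.13). Egfr, the EGF receptor, was at -1.49 (-2.11 to -0.84), with 30 of its 31 WT UMIs in the 2 WT nuclei of the Slc47a1 set. In the Trpm3-poor set it had 1 WT and 3 KO UMIs. Rbms1, an RNA-binding protein gene, was at -1.44, Slc4a10 at -1.29, Itih5 at -1.27, Col4a5 at -1.15, the RNA helicase gene Ddx5 at -1.06 and proenkephalin (Penk) at -1.001. The potassium channel gene Kcnb2 (-0.94) and the chromatin remodeller Chd9 (-0.93) were next among those eligible for naming and did not reach 2-fold. The 2 WT nuclei of the Slc47a1 set held 41 of the 43 WT UMIs of Slc4a10 and 25 of the 26 of Kcnb2. In the Trpm3-poor set Col4a5 was at -0.65 (-1.47 to 0.17) and Rbms1 at -1.17 (-2.08 to -0.27). Some of the pooled directions turned with the choice of nuclei. Zeb1 was at 0.10 among nuclei chosen by 6 of the 20 outside genes, and Kcnb2 at 0.26 without the Trpm3-rich nuclei. With at least 3 rule genes, WT is 1 nucleus of the Slc47a1 set, which held 0 UMIs of Itih5 and of Nnat. The floor of 3 counts there gives lower bounds of 0.70 for Itih5 and -1.11 for Nnat, and the latter shows no reversal.

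**Figure D5:**
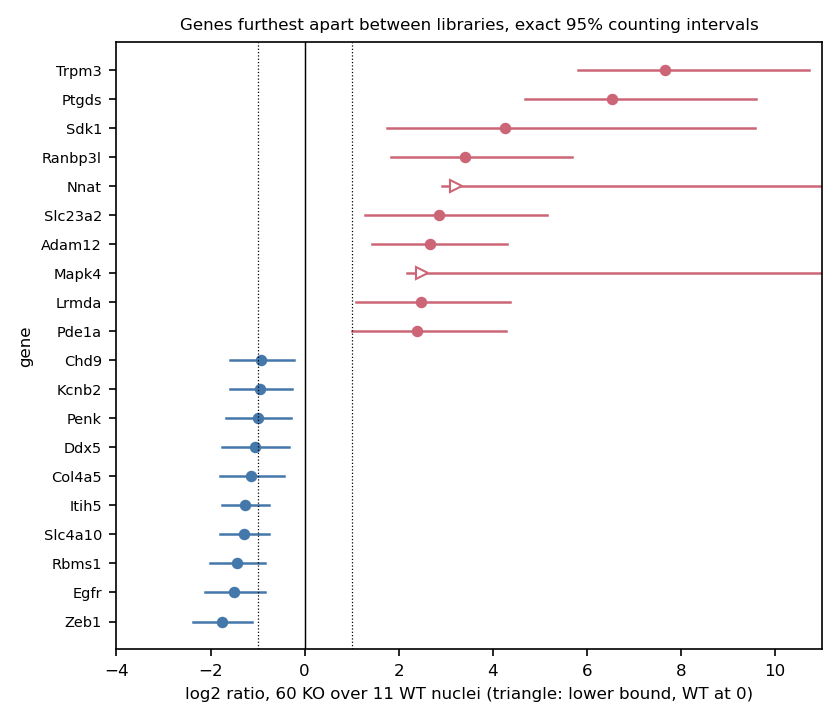
Log2 ratio of KO over WT members (horizontal axis) for the 10 genes highest and the 10 lowest in KO among the 147 eligible for naming. Bars are exact 95% counting intervals, triangles are lower bounds for genes at 0 in WT, and dotted lines mark 2-fold. Trpm3 (7.67) and Ptgds (6.54) stand apart on the right, and Zeb1 (-1.76) is the lowest of those shown.

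Within sets the libraries also differed. In the Trpm3-poor set, 9 WT and 15 KO nuclei, 24 of 148 genes with at least 30 UMIs (16.2%) were at least 2-fold higher in KO and 14 (9.46%) at least 2-fold lower. Lama1 was at 1865 CPM in WT and 2080 in KO (log2 ratio 0.16, interval -0.50 to 0.85), Slc6a13 at 772 and 750 (-0.04), Vtn at 1351 and 1296 (-0.06) and Bmp6 at 1544 and 1910 (0.31). Slc6a13 is a rule gene, so its level in members of either library is shaped by how they were chosen. Itih5, lower in the pooled KO members, was at 2894 and 2421 CPM here (-0.26, interval -0.82 to 0.31), and Zeb1 was at 2058 and 1023 (-1.01, interval -1.78 to -0.24). Adam12 had 0 WT and 34 KO UMIs, at least 2.59 higher on the log2 scale. Ptgds had 0 WT UMIs and 64 KO UMIs, 1 to 22 per KO nucleus, with a bound of 3.5. Nuclei of 1 library are not replicates of a genotype. Of those 64 UMIs, 45 lay in the 3 KO nuclei of the set that held any Trpm3, and the other 12 KO nuclei held 1 to 3 each, or 806 CPM. Cemip was lower in KO, with 61 and 16 UMIs (-2.85), of which 39 were in 1 WT nucleus.

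In the Slc47a1 set, with 2 WT nuclei, 25 of 111 genes with at least 30 UMIs (22.5%) were at least 2-fold higher in KO and 21 (18.9%) at least 2-fold lower. Slc47a1 was at 1806 CPM in WT and 2115 in KO (0.23), Bnc2 at 4104 and 3525 (-0.22) and Slc38a2 at 2955 and 3268 (0.15). Slc47a1 is a rule gene and was used to pick the set, so its level in either library is shaped by that choice. Egfr had 13 and 17 UMIs in the WT nuclei and at most 6 in any KO nucleus, at 4924 and 737 CPM (-2.74, interval -3.59 to -1.91). How many of all genes differ in this way between the nuclei of the libraries was not counted. For Slc23a2 the WT nuclei held 0 and 3 UMIs and the KO nuclei 2 to 61, at 492 and 4550 CPM (3.21). Slc4a10 was at 17 and 24 UMIs in the WT nuclei and 2 to 19 in the KO nuclei (-0.84). Because WT is 2 nuclei here, these values describe those nuclei.

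Sema6d itself was scarce in fibroblasts. It had 14 UMIs in 12 members, at 79.2 CPM against 636 in neurons, its highest class, or 0.125-fold. WT members had 3 UMIs in 3 nuclei (139 CPM, 28.6 to 405) and KO members 11 in 9 nuclei (70.9 CPM, 35.4 to 127), and the interval of the log2 ratio of -0.97 ran from -2.89 to 1.51, so a difference was not detectable at this depth. By set, 6 of the 14 UMIs lay in the Slc47a1 set, at 161 CPM. Of the plexins and ligands named above, Plxna2 had 5 WT and 138 KO UMIs and Sema3a 5 and 86. These are raw counts out of 21639 WT and 155200 KO member UMIs, so the pairs overstate the difference in level.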

How the data were processed

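Single nuclei of the amygdala were profiled with the 10x 5' version 2 kit, 1 library per genotype, per the labels. The UMI counts per gene and barcode were deposited by the authors and were made with Cell Ranger 6.0.0 on mm10, per the submitters' processing notes. Symbols were assigned by gene identifier to 32158 of 32285 genes. Counts were read in Python 3.11.15 (scipy 1.17.1, pandas 2.3.3), filtered as the report states, summed per class and library and divided by the summed UMIs to give CPM. Shares have exact Clopper-Pearson intervals, CPM exact Poisson intervals and ratios exact conditional binomial intervals, all at 95% and all for counting error only. A count of 0 was read against a floor of 3 counts. Interval coverage was tested on simulated data. With 1 library per genotype no test was made. The 71 members were clustered with scanpy 1.11.5 and leidenalg 0.10.2 (1000 variable genes, 15 components, 10 neighbours, resolution 0.5). No doublets were removed; Scrublet called 240 WT and 129 KO nuclei, 1 of them a member. TMM factors came from edgeR 4.0.16.

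The text names the 6 rule genes, the 25 leading genes (at least 100 UMIs and found in at least 10% of members), up to 4 genes of each list by CPM, Sema6d, and the 10 highest and 10 lowest KO over WT ratios among genes with at least 25% of the CPM of the highest class. Genes named outside this rule, among them Enpp2, Slc26a7, Cemip, Apod and Egfr within sets, were chosen after their values were seen. Members and lists were chosen with earlier results of these data known. Promoter sequences are from RefSeq. In all, 16 alternatives were tried, 5 of them chosen after seeing the data.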

Additional observations from a re-analysis of the deposited data

How the results depend on the processing

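No paired analysis was possible because each genotype has 1 library, and no replicate could be left out. The fibroblast share stayed higher in KO under each alternative. With at least 3 of the 6 rule genes it was 0.0106% in WT and 0.388% in KO, a ratio of 36.5. There 16 genes were at least 2-fold higher in KO and 5 lower, and Zeb1 turned to 0.36. The 1 WT nucleus held 0 UMIs of Nnat and Itih5. Their values of -1.11 and 0.70 are lower bounds from the floor of 3 counts, and that of Nnat shows no reversal. Chosen by 6 of the 20 outside markers, KO was at 1.18%, with 21 genes lower and Zeb1 at 0.10. Thinning every nucleus to 1000 UMIs before the rule gave 0.473% in KO. Leaving out members that met another class's rule gave 7 genes lower. Without the Trpm3-rich members 3 genes were higher and 0 lower, and Kcnb2 turned to 0.26. TMM scaling gave 60 higher and 2 lower. A minimum of 20 UMIs gave 396 higher and 233 lower of 2084, a minimum of 300 UMIs gave 4 and 0, and members thinned to 1000 UMIs gave 4 and 0. Slc6a13 was found in 76.7% of KO members without thinning and in 75% at 2000 UMIs. Only 3 WT members were that deep, and 0 of them held it before or after thinning. Resolution 1.0 gave 5 clusters. Of 220 ratios of named genes under alternatives 187 were classed as the same, 28 as moved and 5 as reversed. Counting intervals are wide where WT has few UMIs, as for Sdk1 (log2 ratio 1.75 to 9.57). The class same is therefore not read as a small shift, nor a lower bound such as that of Nnat as a reversal. Of 150 folds of leading genes 17 were classed as moved and 0 as reversed. The cause of these changes was not tested beyond the fewer genes and nuclei each leaves. Depth limits WT most, at 21639 UMIs over 11 nuclei.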
